A study of Mus musculus with 9 samples.

Results

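Gap43, Mapt, Dcx and Reln are 4 genes of neurite growth and neuronal migration, and their transcripts were measured here in the brains of mice lacking carbonic anhydrase IX (CAIX) and of wild-type mice. Members were the probes whose identifier, scl0 or scl00 followed by digits, carries the NCBI mouse gene number of one of these genes. These are 4 of 8127 genes that could be named in this way. There were 5 such probes among 46116, with 1 each for Gap43, Mapt and Reln and 2 for Dcx. Of the 5, 4 were above background often enough to be compared, along with 16375 probes in all, and the other was a Dcx probe.

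The samples were 4 CAIX knockout and 5 wild-type mice of the C57BL/6 background, all 8 months old, with total RNA from brain tissue labelled with biotin and read on single-colour bead arrays. CAIX, the product of Car9, is a carbonic anhydrase with its active site outside the cell. The labels give neither the targeted allele, nor the brain region, nor the sex. Each array was taken as 1 mouse.

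All 4 genes encode proteins of the growing or migrating neuron. GAP-43, the product of Gap43, lies under the membrane of growth cones and presynaptic endings, where it is a substrate of protein kinase C, and it is a classic marker of growing and sprouting axons. Tau, the product of Mapt, binds and stabilises the microtubules of axons. Doublecortin, the product of the X-linked Dcx, bundles microtubules in migrating young neurons. In the adult rodent brain it marks neuroblasts on their way to the olfactory bulb and newly born granule cells of the dentate gyrus. Reelin, the product of Reln, is a secreted glycoprotein that directs the layering of the cortex through the receptors Vldlr and Lrp8 and the adaptor Dab1, and in the adult forebrain it is made by subsets of GABAergic interneurons.

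The labels of this series conflict, and the groups below depend on how they are read. Sample titles and the genotype characteristic name different genotypes for 6 of the 9 samples, and 4 arrays lie under a different sample in the signal table than in the processed table. The groups follow the titles through the header of the signal table. On these arrays NeoR-S, a probe named for a neomycin resistance marker, was above background on all 4 titled knockout and on 0 of 5 titled wild type, while no probe could be matched to Car9. Knockout 1, wild type 1 and wild type 2 had high Xist signals (10.46 to 10.89 on the log2 scale), and the other 6 arrays low ones (6.83 to 6.93). Knockout 4 had the lowest median raw signal, 133.2, where the other 8 arrays lay between 167.0 and 209.8. It also had the most probes above background, 17325, where the other 8 had 14895 to 16973. Of 9 neuronal marker genes with a probe 7 were above background, Rbfox3, Syp, Tubb3 and Nefh among them, and Snap25 and Nefl were not.

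Gap43, Dcx and Reln had higher mean signals in the knockout than in the wild type and Mapt a lower one, and none of these differences passed the threshold of an adjusted p of 0.05 over all 16375 probes. Only 4 probes in all, 0.0244%, did so in limma, and 0 of the 4 members. At an unadjusted p under 0.05 there were 3 of the 4 members, Gap43, Mapt and Dcx, beside 11.5% of all probes tested. For Gap43 and Mapt the knockout and wild-type arrays did not overlap, which was so for 3.68% of all probes. The 4 genes were picked with earlier results of these arrays known, so these counts describe them and are no test of the set. In bulk tissue a change in the number of cells that make a transcript and a change in the transcript per cell cannot be told apart.

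**Figure D1:**
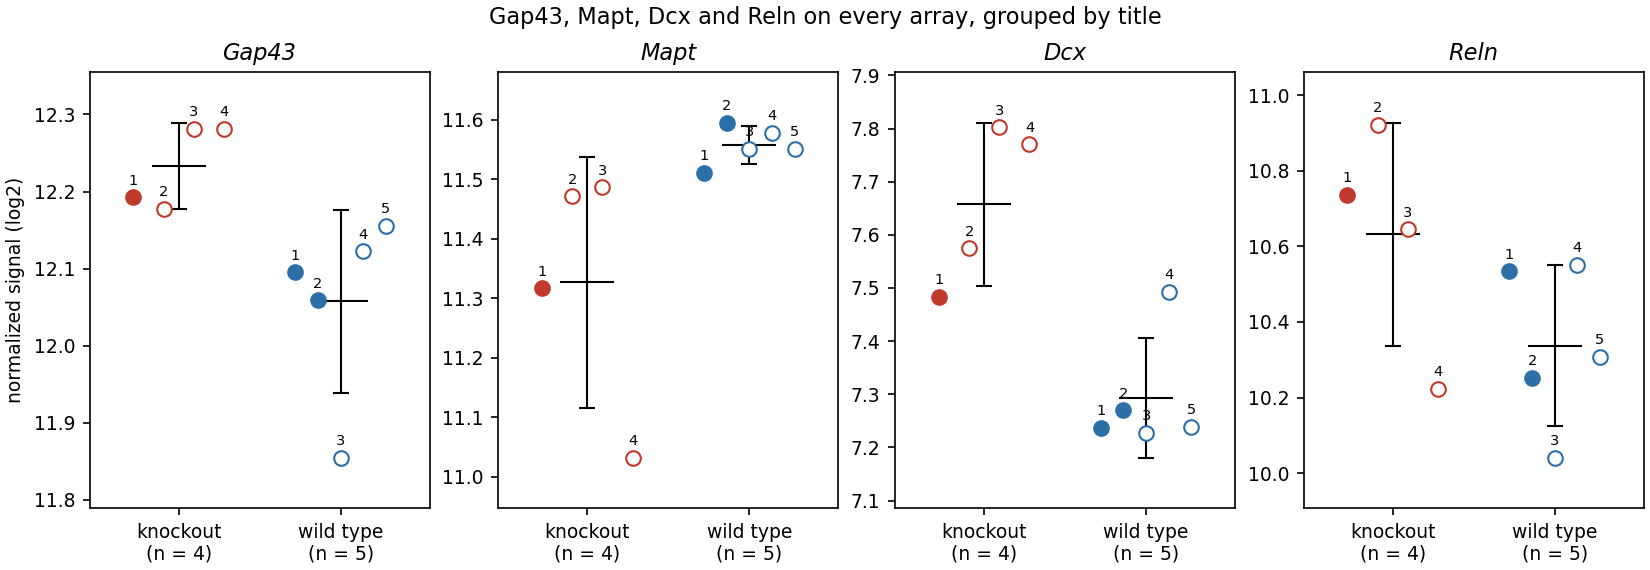
Normalized log2 signal of Gap43, Mapt, Dcx and Reln on each array, with knockout left of wild type, the replicate number above each point, and the mean ± SD of each group in black (n = 4 and 5). Open circles are arrays whose genotype characteristic contradicts the title. Gap43 lies at 12.18 to 12.28 in the knockout and at 11.85 to 12.16 in the wild type, Mapt at 11.03 to 11.49 and 11.51 to 11.60, and the arrays of Dcx and Reln overlap between the groups.

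Gap43, the growth cone gene, had normalized log2 signals of 12.19, 12.18, 12.28 and 12.28 on knockout 1 to 4, against 12.10, 12.06, 11.85, 12.12 and 12.16 on wild type 1 to 5. Every knockout array was thus above every wild-type array, by a margin of 0.02 between the closest pair. Wild type 3 was the lowest of the 9. The group means were 12.23 ± 0.056 (SD, n = 4) in the knockout and 12.06 ± 0.12 (SD, n = 5) in the wild type. The log2 difference was 0.18 (SE 0.064, 95% interval 0.03 to 0.32), or 1.13-fold, with a limma adjusted p = 0.341. An exact permutation test over all splits of the 9 arrays into 4 and 5 gave p = 0.0159, two-sided, the smallest that 4 against 5 arrays allow. Before normalization the signals overlapped, at 4445 to 5983 in the knockout and 4378 to 4882 in the wild type.

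In the growth cone and neurite outgrowth list, 12 genes beside Gap43 were above background. Of these 3 had higher and 9 lower means in the knockout, 0 passed the threshold, and the median log2 difference was -0.05. Of all probes tested 49.8% were higher, and their median was -0.00035. Dpysl2, whose product CRMP2 carries tubulin to growing axon tips, had a difference of 0.11 (SE 0.077) and Cotl1, a coactosin-like actin-binding protein, one of -0.17 (SE 0.088). Enah, an actin regulator of filopodia, had -0.29 (SE 0.16), and its second probe -0.02. Adjusted p-values of these 12 genes ran from 0.504 to 0.981 (limma).

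Guidance and inhibitor genes were likewise divided. In the axon guidance and adhesion list 10 of 16 genes were higher and 6 lower, 0 passed, and the median log2 difference was 0.03. The netrin receptors Unc5b and Unc5c had differences of -0.49 (SE 0.16) and 0.22 (SE 0.11). Cntn2, an axonal adhesion molecule, had -0.43 (SE 0.19) and Nrp1, a semaphorin receptor, 0.35 (SE 0.21). Among growth inhibitors and their receptors 4 of 6 were higher and 0 passed, with a median of 0.04. Omg and Rtn4, which encode the myelin-associated growth inhibitors OMgp and Nogo, had 0.18 (SE 0.070) and 0.18 (SE 0.10). Rhoa, the GTPase on which these inhibitors converge, had -0.29 (SE 0.13), and the receptor phosphatase Ptprd 0.07 (SE 0.11).

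Mapt, which encodes tau, had log2 signals of 11.32, 11.47, 11.49 and 11.03 on knockout 1 to 4, against 11.51, 11.60, 11.55, 11.58 and 11.55 on wild type 1 to 5. All 4 knockout arrays lay below all 5 wild-type arrays, and knockout 4 lay far below the rest. The 5 wild-type arrays were close together and the knockout arrays were not, with means of 11.33 ± 0.21 (SD, n = 4) in the knockout and 11.56 ± 0.032 (SD, n = 5) in the wild type. The log2 difference was -0.23 (SE 0.087, 95% interval -0.43 to -0.03), or 0.852-fold, with a limma adjusted p = 0.355. The exact permutation test gave p = 0.0159, two-sided, again the smallest possible. Raw signals did not overlap either, at 2537 to 2965 in the knockout and 3062 to 3624 in the wild type. Before normalization knockout 4 was not the lowest, with 2726.5 against 2536.5 on knockout 1. Without knockout 4, the array of lowest median signal, the log2 difference was -0.13 (limma, adjusted p = 0.294).

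The list of microtubule-associated proteins held 16 genes above background beside Mapt. Of these 8 had higher and 8 lower means in the knockout, 0 passed, and the median log2 difference was 0.01. At an unadjusted p under 0.05 were 4 of the 16, 1 higher and 3 lower, beside 11.5% of all probes. Macf1, a large linker of actin and microtubules, was the one with a higher mean, at 0.45 (SE 0.13), and its adjusted p = 0.253 was the lowest of the list (limma). Map1a, which binds the microtubules of mature neurons, had -0.46 (SE 0.16), and Mapre1, the plus-end protein EB1, -0.25 (SE 0.086). Map1b and Map2, the microtubule proteins of young axons and of dendrites, had -0.04 and -0.0024. The Map2 probe was of low signal, with means of 6.973 in the knockout and 6.975 in the wild type, so its difference says little.

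Of the enzymes that add or remove phosphate on tau, 9 of 12 had lower means in the knockout, 0 passed, and the median log2 difference was -0.07. Mark2 and Mark1, kinases that phosphorylate the microtubule-binding repeats, had -0.23 (SE 0.080) and -0.28 (SE 0.12). Dyrk1a, another tau kinase, had -0.08 (SE 0.044), and Ppp2r5c, a regulatory subunit of protein phosphatase 2A, -0.06 (SE 0.034). The knockout arrays of Ppp2r5c were all below the wild-type arrays, and 3.68% of all probes likewise did not overlap between the groups. Its means were low, 6.90 in the knockout and 6.96 in the wild type, as were those of Dyrk1a, 7.05 and 7.13. The Dcx probe that was not above background had 6.77 to 6.86. Adjusted p-values of the 12 enzymes ran from 0.325 to 0.986 (limma).

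Markers of other cell types were counted in the same way, and none passed the threshold. Of 6 oligodendrocyte and myelin genes with a probe, all above background, 6 had lower means in the knockout and 0 passed, with a median log2 difference of -0.35. Their summed normalized signal was 3317 to 5235 on the knockout arrays and 4760 to 6918 on the wild-type arrays, lowest on knockout 4. The 7 neuronal markers had 2 higher and 5 lower means, a median of -0.01, and summed signals of 36637 to 42076 in the knockout and 39549.7 to 43230.4 in the wild type. Rbfox3 had the largest difference of the 7, -0.28 (SE 0.12), with a limma adjusted p = 0.435. All 5 astrocyte markers above background had lower means (median -0.12), with Gfap not above background. Of 4 microglial markers above background 2 had higher and 2 lower means (median -0.05). Of 2 endothelial markers 1 was higher and 1 lower (median 0.03). The choroid plexus marker Clic6 had -0.35 (SE 0.48), with 9.32 on knockout 1 and 7.01 on knockout 2, the highest and lowest of the 9 arrays. Both meningeal and fibroblast markers above background, Dcn and Mgp, had higher means (median 0.38), and 0 passed. Their mean log2 signals were 10.06, 9.65, 8.70 and 7.88 on knockout 1 to 4, against 8.28 to 9.19 on the wild-type arrays. Knockout 1 and 2 were also the arrays of highest Reln, and whether these markers and Reln are related was not tested. Among wild-type arrays the order differed, with the lowest marker mean (8.28) and the highest Reln (10.55) both on wild type 4. Markers of brain regions varied between arrays, with mean log2 signals of 3 hippocampal genes at 8.30 to 9.18 in the knockout and 8.41 to 8.82 in the wild type. Those of 2 striatal genes were 7.41, 7.06, 9.44 and 9.40 on knockout 1 to 4, and 8.45 to 9.49 in the wild type. Knockout 1 and 2 were thus the lowest of the 9 arrays in striatal markers. The 1 cerebellar marker with a probe, Cbln3, was not above background. The part of cell and region composition in the values of Mapt and the other members was not tested.

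Dcx, which marks migrating young neurons, had the largest of the 4 differences. Its brighter probe had log2 signals of 7.48, 7.57, 7.80 and 7.77 on knockout 1 to 4, against 7.24, 7.27, 7.23, 7.49 and 7.24 on wild type 1 to 5. Wild type 4 stood 0.01 above knockout 1, the only pair out of order, while the other wild-type arrays lay close together below all knockout arrays. The means were 7.66 ± 0.15 (SD, n = 4) in the knockout and 7.29 ± 0.11 (SD, n = 5) in the wild type. The log2 difference was 0.36 (SE 0.083, 95% interval 0.18 to 0.55), or 1.29-fold. It had a limma adjusted p = 0.193 and was number 137 by p among the 16375 probes. The exact permutation test gave p = 0.0317, two-sided. Raw signals were 344.1 to 439.9 in the knockout and 279.9 to 365.5 in the wild type, all above background.

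The second Dcx probe, scl013193.1_27-S, was above background on 0 of 4 knockout and 0 of 5 wild-type arrays. Its raw signals were 122.5 to 190 in the knockout and 153.2 to 196.9 in the wild type, and its lowest detection p was 0.244 in the knockout and 0.291 in the wild type. It therefore gives no fold for Dcx, and the difference rests on 1 probe of low signal. Where on the transcript either probe lies was not used here.

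The doublecortin and neuronal migration list held 9 genes above background beside Dcx. Of these 4 had higher and 5 lower means in the knockout, 0 passed, and the median log2 difference was -0.0090. Pafah1b1, whose product LIS1 works with dynein in nuclear movement, had 0.40 (SE 0.19) on its brighter probe and -0.03 on another. Rnd2, a GTPase of cortical migration, had -0.20 (SE 0.12), and Dync1h1, the dynein heavy chain, 0.08 (SE 0.058). Dclk1, the doublecortin-like kinase, had -0.10.

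Markers of young neurons and of the olfactory bulb, where Dcx is also abundant, had mostly lower means. Of 8 genes above background beside Dcx, only Stmn1 (0.21) had a higher mean in the knockout, 7 were lower, 0 passed, and the median was -0.07. Sox11, a transcription factor of newly born neurons, had -0.34 (SE 0.12), with a mean of 7.31 ± 0.051 (SD, n = 4) in the knockout and 7.65 ± 0.27 (SD, n = 5) in the wild type. Sox4, its close relative, had -0.10 (SE 0.073), and Slc17a7, the vesicular glutamate transporter of mitral and cortical cells, -0.11 (SE 0.13). Adjusted p-values of the 8 ran from 0.342 to 0.981 (limma).

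Reln, the ligand of the migration pathway, had log2 signals of 10.74, 10.92, 10.65 and 10.22 on knockout 1 to 4, against 10.53, 10.25, 10.04, 10.55 and 10.31 on wild type 1 to 5. Knockout 1 to 3 were above every wild-type array, but knockout 4 was below all wild-type arrays except wild type 3. The means were 10.63 ± 0.30 (SD, n = 4) in the knockout and 10.34 ± 0.21 (SD, n = 5) in the wild type. The log2 difference of 0.29 (SE 0.15, 95% interval -0.04 to 0.63), or 1.23-fold, had a limma adjusted p = 0.505 and did not exceed the spread between arrays. The exact permutation test gave p = 0.111, two-sided. Raw signals overlapped, at 1658 to 2073 in the knockout and 1436 to 1770 in the wild type. The difference was 0.43 without knockout 4 and 0.20 without knockout 2, and neither value passed (limma, adjusted p = 0.206 and 0.752).

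In the reelin signalling list, 9 genes beside Reln were above background. Of these 3 had higher and 6 lower means in the knockout, with 0 past the threshold in limma, 0 at an unadjusted p under 0.05, and a median log2 difference of -0.04. The receptor Vldlr had -0.13 (SE 0.061) and the adaptor Dab1 -0.03. Cfl1, the actin-severing cofilin, had -0.08 (SE 0.043), and Pik3r1, a regulatory subunit of PI 3-kinase, 0.20 (SE 0.14). The Cfl1 probe was of low signal, with means of 7.01 in the knockout and 7.08 in the wild type. Of the interneuron list only 3 of 9 genes with a probe were above background. Among them beside Reln was Calb2, calretinin, at -0.20 (SE 0.45).

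**Figure D2:**
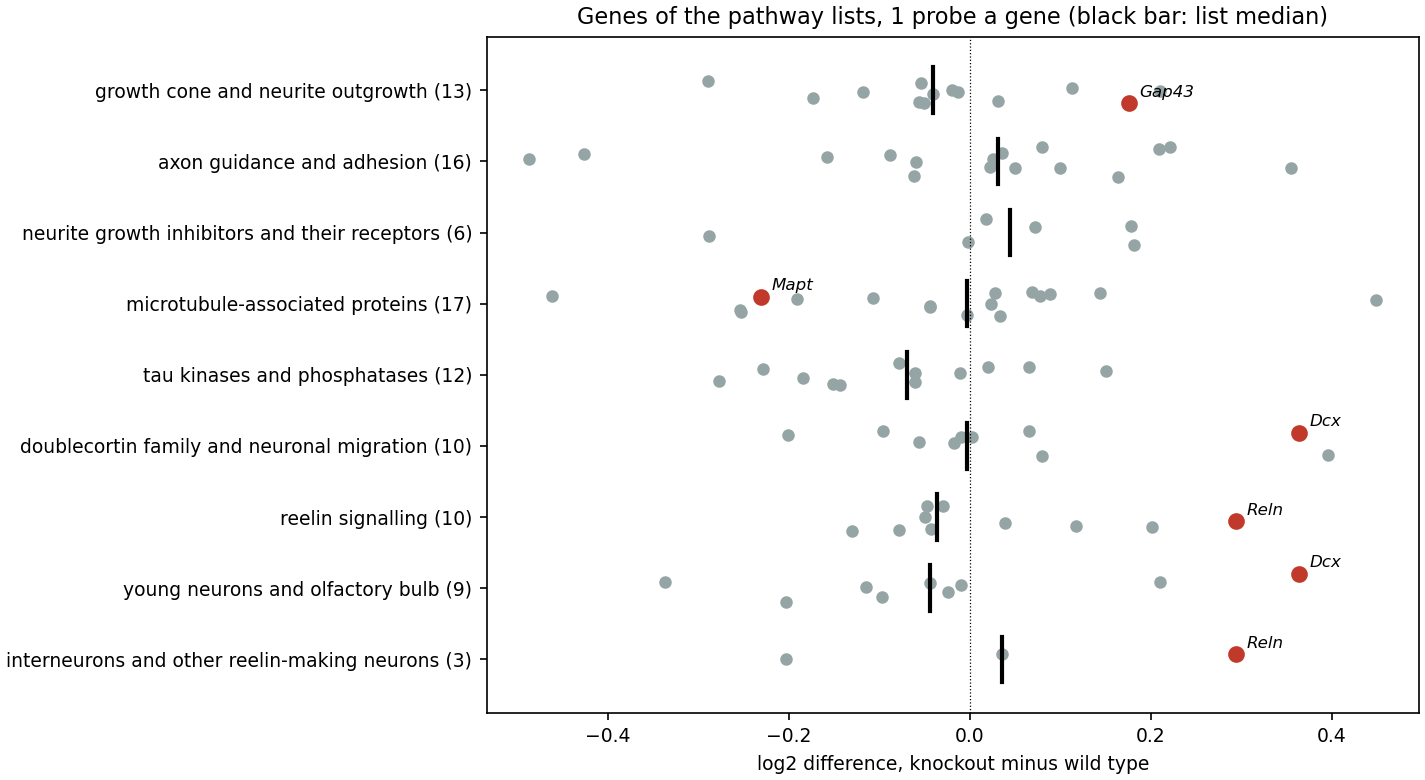
Log2 difference, knockout minus wild type, of each gene above background in the 9 pathway lists (number of genes in parentheses), with 1 probe a gene. Red points are Gap43, Mapt, Dcx and Reln and black bars the list medians, members included. The medians lie between -0.07 and 0.04. The red points lie between -0.23 and 0.36, within the range of the other single genes, from -0.49 (Unc5b) to 0.45 (Macf1).

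Beside the 4 members, the 9 lists held 87 genes above background. Of these 10 (11.5%) had an unadjusted p under 0.05, the same share as of all probes (11.5%), and 0 passed the adjusted threshold (limma).

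Within each group the 4 genes varied in different ways. On knockout 4 Mapt and Reln were the lowest of the knockout arrays while Gap43 and Dcx were at or near the highest. On wild type 4 Dcx and Reln were the highest of the wild-type arrays, and on wild type 3 Gap43, Dcx and Reln were the lowest. Gap43 and Dcx had a Pearson r of 0.78 over the 9 arrays (permutation p = 0.00684, adjusted 0.0684 over 10 relations) and a Spearman rho of 0.85 (permutation p = 0.00657, adjusted 0.0657). Wild type 3 and knockout 3 were the farthest in Gap43, but knockout 3 was tied with knockout 4, which was kept. Without wild type 3 and knockout 3, r was 0.83. After subtracting each group's mean it was 0.48, so part of the relation is the difference between the groups. The pair thus had no adjusted p under 0.05, and neither had any of the other 5 pairs. Their r ran from -0.61 for Mapt and Dcx to 0.53 for Gap43 and Reln. Without the 2 arrays farthest in the first gene of each pair, r was 0.03 for Gap43 and Reln, -0.58 for Mapt and Dcx, -0.72 for Mapt and Reln (0.02 over all 9) and 0.85 for Dcx and Reln (0.40 over all 9). For Gap43 and Mapt it was -0.90, with knockout 4, the array lowest in Mapt, kept in the tie. Over all 9 arrays r was -0.56 for this pair, with a rho of -0.78 (permutation p = 0.0168, adjusted 0.0840). With each group's mean subtracted over all 9 arrays, r was -0.15 for Gap43 and Mapt and 0.23 for Gap43 and Reln. In the same way it was -0.11 for Mapt and Dcx, 0.64 for Mapt and Reln and -0.14 for Dcx and Reln. The values without 2 arrays thus depend on the group difference and on which arrays are left out.

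No relation between the median raw signal of an array and a member had an adjusted p under 0.05. For Mapt r was 0.78 (permutation p = 0.0526, adjusted 0.179) with a rho of 0.38 (permutation p = 0.318, adjusted 0.397), and without knockout 4 and wild type 5, the 2 arrays farthest in median signal, it was 0.23, so it rested on those arrays. For Dcx r was -0.57 (permutation p = 0.0912, adjusted 0.201) and rho -0.63 (permutation p = 0.0760, adjusted 0.190), and r was -0.85 without the same 2 arrays. For Gap43 and Reln r was -0.55 and 0.25 (adjusted permutation p = 0.201 and 0.598), and rho was -0.72 and -0.02 (adjusted permutation p = 0.115 and 0.982). The part of the median signal in the differences between the groups was not tested.

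**Figure D3:**
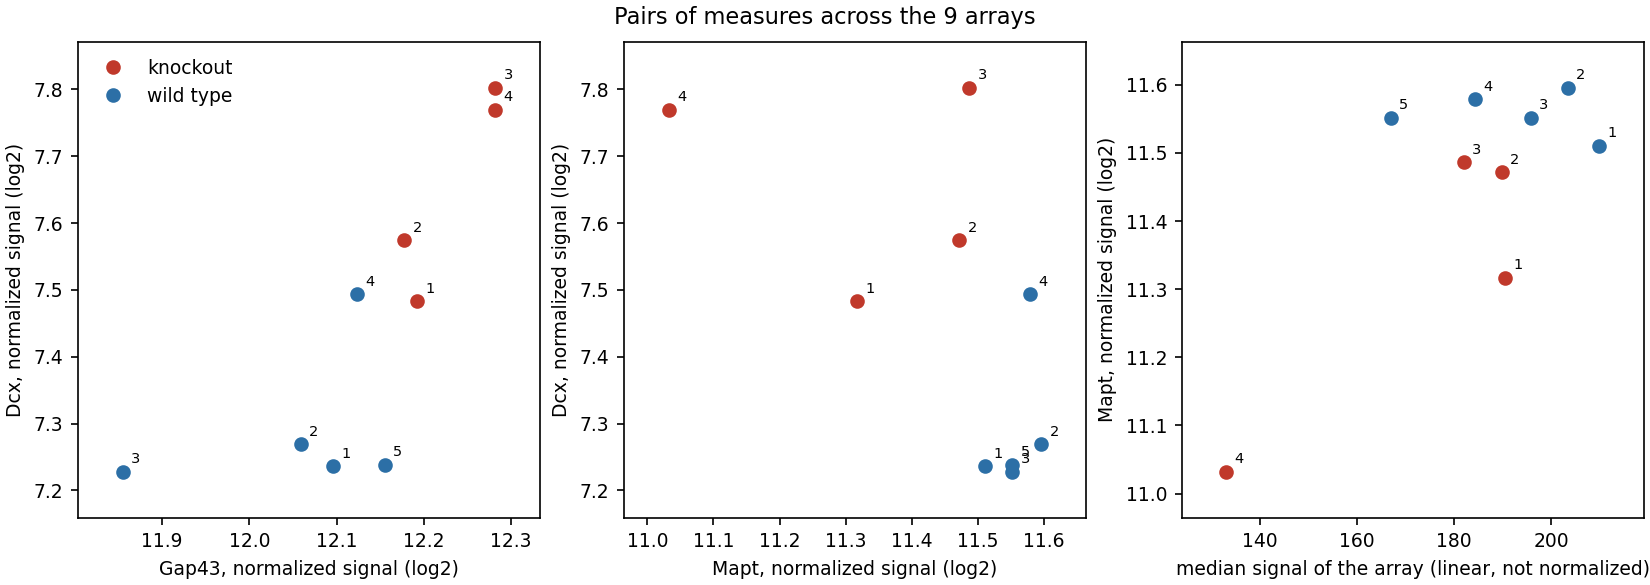
Each point is 1 array, red for knockout and blue for wild type, with its replicate number. The left panel sets the log2 signal of Dcx against that of Gap43 (r = 0.78), the middle panel Dcx against Mapt (r = -0.61), and the right panel the log2 signal of Mapt against the median raw signal, where knockout 4 stands alone at 133.2.

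The genes whose signal most resembled each member across the 9 arrays came from many kinds of protein. For Dcx these were Cspp1, a centrosome and cilium protein (r = 0.98), Akap17b, an anchoring protein of protein kinase A (r = 0.97), and Pfkfb2, a regulator of glycolysis (r = 0.97). For Gap43 they were the zinc-finger homeobox factor Zhx1 (r = 0.94), the mRNA capping enzyme Rngtt (r = 0.91) and the phospholipid enzyme Cept1 (r = 0.89). Mapt was most like Xpnpep3, an aminopeptidase (r = 0.95), Msl1, a chromatin regulator (r = 0.95), and Ddah1, which breaks down methylated arginine (r = 0.94). Reln was most like Ipo8, a nuclear import receptor (r = 0.93), Ccbe1, a secreted factor of lymphatic growth (r = 0.93), and H2-DMb2 of the MHC class II pathway (r = 0.92). These were the highest of 4634 named probes each, arrays and normalization are shared by all of them, and no p is given. Each r pools both groups and so includes any difference between them. Every gene named here differed between the groups in the direction of its member. Cspp1, Akap17b and Pfkfb2 had log2 differences of 0.26, 0.31 and 0.49.

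The direction of the members changed with the reading of the labels. NeoR-S was above background on all 4 titled knockout arrays and on 0 of 5 titled wild-type arrays, so it follows the titles of the signal table. The genotype characteristic calls knockout 2, 3 and 4 wild type and wild type 3, 4 and 5 knockout, against NeoR-S. In the processed table the columns titled knockout 3 and 4 hold the signals of wild type 5 and 4. With the genotype characteristic in place of the title, the log2 difference was -0.17 for Dcx, -0.10 for Gap43, 0.08 for Mapt and -0.11 for Reln, each opposite to the value by title, and this reading shares its 9 arrays with the first. Taken by title from the columns of the processed table, it was 0.0095 for Dcx, 0.045 for Gap43, 0.042 for Mapt and 0.245 for Reln. With the characteristic read through that table it was 0.21, 0.03, -0.18 and -0.09 for Dcx, Gap43, Mapt and Reln. No member passed under any of the 4 readings, and every adjusted p under the last 3 was at least 0.999 (limma). On the 3 arrays whose labels do not conflict, knockout 1 against wild type 1 and 2, the differences were 0.23 for Dcx, 0.12 for Gap43, -0.24 for Mapt and 0.34 for Reln, with adjusted p from 0.919 to 0.984 (limma, spread pooled over the label combinations and the lone knockout array assumed to vary like the others).

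**Figure D4:**
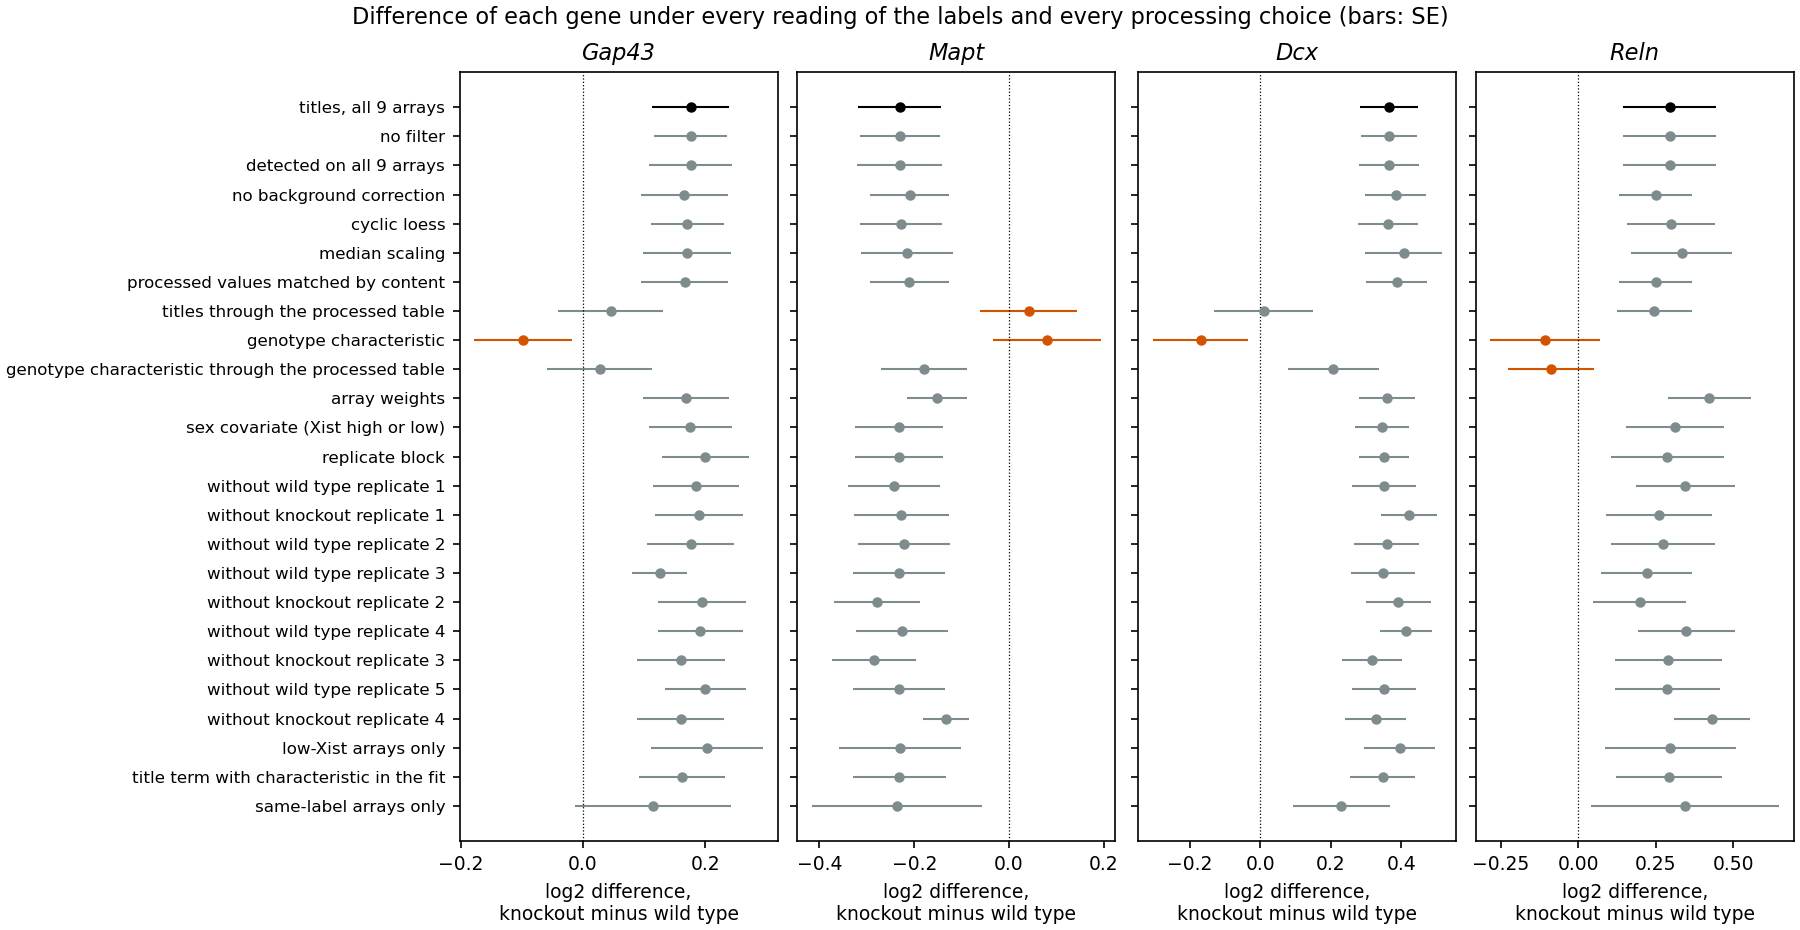
Log2 difference, knockout minus wild type, of Gap43, Mapt, Dcx and Reln (points, with SE bars) by title over all 9 arrays (black, top) and under every other reading of the labels, processing choice and left-out array. Orange points have the opposite sign to the black one, and they occur only where the groups are read from the genotype characteristic or through the processed table.

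The 6 arrays with low Xist, 3 knockout and 3 wild type by title, are the same 6 whose title and genotype characteristic conflict. By the characteristic every difference among them has the opposite sign. By title they were 0.40 for Dcx, 0.20 for Gap43, -0.23 for Mapt and 0.30 for Reln (limma, adjusted p from 0.325 to 0.751). With Xist as a covariate over 9 arrays they were 0.34, 0.18, -0.23 and 0.31.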

How the data were processed

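The authors deposited intensity values, the linear signal of each probe and, per the file headers, not normalized. A fraction deposited by the authors for every signal is named a detection p-value in the file headers. Since brighter probes had larger fractions (lowest rank correlation 0.992), 1 minus the fraction served as the detection p. The authors also deposited log2 values, which quantile normalization of the signals followed by log2 recovered to within 0.0051 once columns were matched by content. Which tools the authors used is not given in the sources used here.

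Of 46120 rows, 4 without a processed value were dropped. The neqc function (limma 3.58.1, R 4.3.3) was applied with an offset of 16, and a probe was kept where at least 4 arrays had a detection p under 0.05 (16375 probes). Knockout and wild type, by title, were compared by a two-sided moderated test (lmFit and eBayes, limma), and p-values were adjusted over these probes by Benjamini-Hochberg. Exact permutation tests used scipy 1.17.1. The number of arrays limits the precision, and p-values measure the spread between arrays. The fit was tested on simulated data.

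Gene numbers in identifiers were named from a RefSeq table of GRCm38.p6. Of 10024 numbers 81.1% were in it, against 42.5% to 45.9% after shifting them by 1 to 3, so names are an inference. In all 9832 probes had a name, 4634 of them kept. Each list gene entered with its kept probe of highest mean signal. Named in the text are all member probes, up to 4 genes of smallest p per list and the 3 symbols most correlated with each member. A gene of the interneuron list is not reported here. Map1b, Map2, Dclk1, Dab1 and Stmn1 were chosen after their values were seen. Members and lists were chosen with earlier results of these data known.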

Additional observations from a re-analysis of the deposited data

Results flagged for a closer look

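In 12 groups of arrays, those of the 5 member probes and of the median signal, 2 had 1 array set apart from the others by Dixon's test. Chance alone gives about 1 in 20 for independent groups, and these share the same 9 arrays. Among wild-type arrays Dcx was 7.49 on wild type 4, where the nearest was 7.27. Without wild type 4 the log2 difference of Dcx was 0.41 (limma, adjusted p = 0.0983). Among knockout arrays the median raw signal was 133.2 on knockout 4, where the nearest was 182. Without knockout 4 the log2 differences were 0.33 for Dcx, 0.16 for Gap43, -0.13 for Mapt and 0.43 for Reln, none past the threshold (limma, adjusted p from 0.190 to 0.379).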

How the results depend on the processing

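No member passed the threshold by title or under any of 24 alternatives (lowest limma adjusted p 0.0712, for Dcx without knockout 1). Signs turned only under other readings of the labels. With the genotype characteristic the log2 difference was -0.17 for Dcx, -0.098 for Gap43, 0.080 for Mapt and -0.11 for Reln. With titles through the processed table Mapt was 0.042, and with the characteristic through it Reln was -0.088. The cause was not tested.

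Leaving out each array in turn gave 0.32 to 0.42 for Dcx, 0.13 to 0.20 for Gap43, -0.28 to -0.13 for Mapt and 0.20 to 0.43 for Reln. Array weights moved Mapt to -0.15 and Reln to 0.42 (limma, adjusted p = 0.299 and 0.186), and gave 0.36 for Dcx and 0.17 for Gap43. The number of probes past the threshold was 4 by title and 2 to 48 with an array left out, 48 without knockout 1, 7 without knockout 3 and 2 without wild type 1, 2, 3 or 5. It was 0 among probes detected on all 9 arrays (1622 at an unadjusted p under 0.05) and 0 under each of the other 3 readings (344 to 669). It was 11 without background correction (4 higher and 7 lower, against 3 and 1 by title), 13 with the processed values matched by content (4 higher and 9 lower), 2 with median scaling, 2 with Xist as a covariate, 1 on low-Xist arrays and 1 on the arrays whose labels do not conflict. The last 2 and the fit with both labels were chosen after seeing the data.

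With the replicate block, 1 probe passed, and the members had 0.35 for Dcx, 0.20 for Gap43, -0.23 for Mapt and 0.29 for Reln. Deviations of the 4 same-numbered pairs correlated at -0.31 to 0.10, so the numbers were not taken as pairs. Dcx rests on 1 probe with raw signals of 279.9 to 439.9, and its difference was 0.385 without background correction.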
